A study of Pseudotsuga menziesii with 26 samples.

Results

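The comparison described here set needles of Douglas-fir (Pseudotsuga menziesii) seedlings exposed to exhaust from cerium-treated diesel fuel against needles of seedlings kept in filtered air, using the deeply sequenced libraries. Its members were the 4 DECe seedlings (replicates 2, 3, 4 and 13) whose column total in the deposited raw count table reached 10000000, together with all 6 Air Control seedlings (replicates 3, 5, 8, 11, 14 and 15). These are 10 of the 26 libraries of the series, and 85562 of the 173882 transcripts in the table had at least 1 count in them. The DECe seedlings received emissions of a diesel fuel that carried engineered cerium dioxide (CeO2) nanoparticles as a combustion catalyst. The Air Control seedlings received air cleaned by charcoal, Purafil and HEPA filters. All seedlings shared 1 parent, had exposures of 6 h on each of 5 days per week over 2 weeks in December, when needle growth was dormant, and received filtered air between exposures. The sampled needles had grown in 2011 and were taken in 2012. For comparison, the DECe Gas Phase group received the same cerium exhaust after HEPA filtration (4 deep libraries), and the DE group received exhaust of the fuel without the additive (1 deep library). Each atmosphere had 1 chamber, so an effect of the atmosphere cannot be told apart from one of its chamber.

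Needles exchange gases with the air through stomata, and conifer needles live for several years, so a needle formed in one season meets the air of the next ones. Cerium dioxide nanoparticles are added to diesel fuel because cerium switches between oxidation states and helps soot to burn. They leave the engine with the exhaust particles, and the HEPA filter removes particles while gases such as nitrogen oxides pass. Plants are known to answer such oxidising gases with antioxidant, detoxification and defence genes. The deposited identifiers are not paired with gene names, so none of the transcripts below has a stated function, and the tissue label was not checked against marker genes.

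The 4 DECe libraries were chosen by depth, so depth is a description here. Their totals ran from 12404373 counts in DECe replicate 13 to 60457187 in DECe replicate 3, and the Air Control totals from 24924192 to 43560508. The DECe library nearest below the limit, replicate 10, had 6675677 counts. Air Control replicates 14 and 11 stood apart in composition. Dominant transcripts, here the 16 with over 1% of the counts in any of the 10 libraries, took 81.1% in Air Control replicate 14 and 51.9% in replicate 11, against 32.4% to 44.01% in the other 8 libraries. TMM factors, which scale each library for such differences, were 0.261 and 0.693 in these replicates and 1.16 to 1.31 in the others. The 11 libraries under the depth limit were all from exhaust groups, with no Air Control among them, so depth was not separate from exposure there. A set of 31 transcripts marked these 11 libraries (over 100 counts per 1000000 there and over 20 times the level in the deep libraries). They held 0.0479% to 0.379% of the counts in deep DECe and 0.0118% to 0.0503% in Air Control, and 8.14% to 11.8% in the 3 shallow DECe libraries. Of the 28 of them that were tested, 0 passed in edgeR, where 0.154% of all tested transcripts passed. Their median log2 fold change was 1.86, against 0.01 over all tested transcripts, and 25 of the 28 were above 0. Their part in the results below was not tested.

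**Figure D1:**
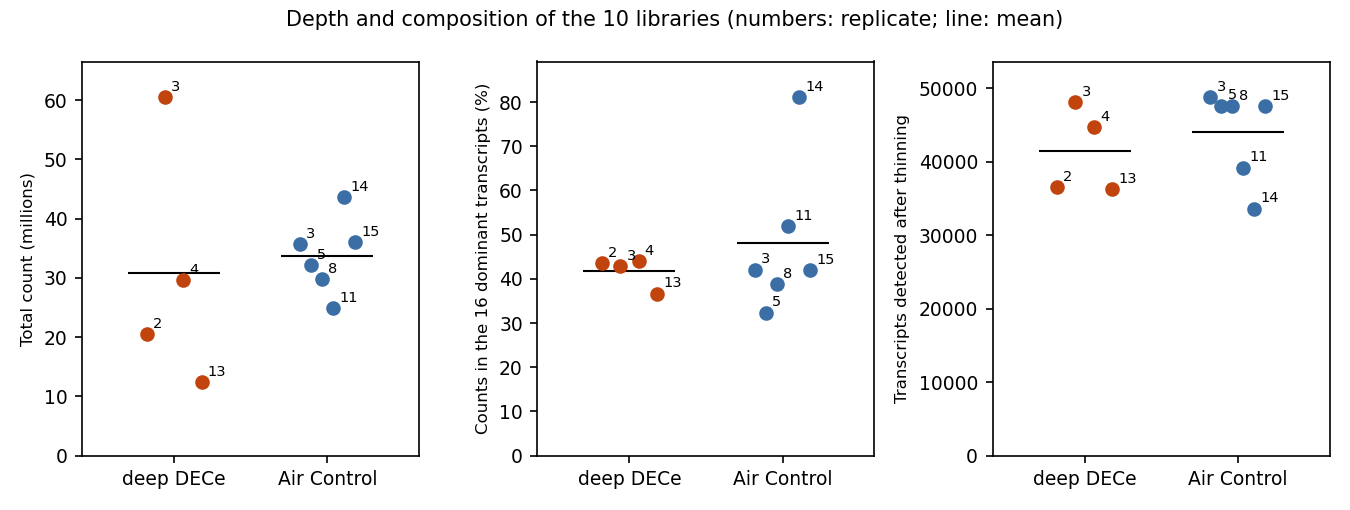
Total count, percentage of counts in the 16 dominant transcripts, and number of transcripts with at least 1 count after thinning to 12404373 counts, for each of the 4 deep DECe and 6 Air Control libraries (numbers are replicates, lines are group means). Air Control replicate 14 lies highest in dominant share, at 81.1%, and lowest in detected transcripts, at 33652.

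At equal depth the number of transcripts detected differed between the groups by less than the SD within either group. The share held by the most counted ones was taken at full depth. Its difference between the groups exceeded the SD in deep DECe but not that in Air Control. After thinning to 12404373 counts, deep DECe held 36562, 48132, 44713 and 36286 transcripts in replicates 2, 3, 4 and 13, and Air Control held between 33652 and 48797 with a median of 47600. The groups overlapped, and the difference in means of -2666 transcripts did not pass (two-sided exact permutation p = 0.467, 0.657 when adjusted over 3 measures, n = 4 and 6). The dominant transcripts took 41.8% ± 3.45 of the counts (SD over the 4 deep DECe libraries) and 48.03% ± 17.4 (SD over the 6 controls), and this did not pass either (exact permutation p = 0.657, adjusted 0.657). Without Air Control replicate 14 that difference changed sign, from -6.22 to 0.39 percentage points. The smallest two-sided p that this design allows is 0.00952.

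Taken over all tested transcripts, a separation of the groups' profiles did not pass once adjusted. Group accounted for 16.3% of the squared distances between libraries on log2 CPM, where CPM stands for counts scaled to 1000000 per library after TMM (one-sided exact permutation p = 0.0333, 0.1 when adjusted over the 3 measures). On the 2000 most variable transcripts the share was 17.5% (exact permutation p = 0.00476, the smallest that the design can give). Without DECe replicate 4 or 13, or Air Control replicate 5, 8 or 15, the p was 0.0595 to 0.0635. Seedlings within a group also differed widely. The median SD of a transcript between seedlings was 0.69 on the log2 scale in deep DECe (n = 4) and 0.62 in Air Control (n = 6), and 0.54 in Air Control without replicate 14. A deep DECe library lay on average 262.2 distance units from the others of its group and 249.3 from the Air Control libraries. Each deep DECe library lay farther from its own group than from Air Control. An Air Control library lay on average 213.1 from the others of its group and 249.3 from the deep DECe libraries. The distances within the groups thus also differed, and this was not tested. DECe replicates 13 and 2, with the lowest totals of the compared libraries, lay on average 302.6 and 277.6 from their group. DECe replicates 3 and 4 lay 237.6 and 231.0 from it.

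Between deep DECe and Air Control, 48 of 31255 tested transcripts changed, which is 0.154% (edgeR quasi-likelihood F tests, adjusted p under 0.05). In deep DECe 27 were higher (0.0864% of those tested) and 21 lower (0.0672%). The 27 higher transcripts had log2 fold changes from 1.28 to 4.75 with a median of 2.47, and 18 of them exceeded 4-fold. The 21 lower ones had a median log2 fold change of -2.50, and 20 exceeded 4-fold. Over all tested transcripts the median log2 fold change was 0.01, the interquartile range ran from -0.39 to 0.41, and the median SE was 0.46. An unadjusted p under 0.05 was reached by 3423 transcripts (11%), 1647 higher and 1776 lower. In bulk needles, fewer cells of a type and less RNA per cell cannot be told apart. Changes are relative to TMM scaling. With library sizes alone the median of all tested transcripts moved to 0.24 and the split became 72 higher and 30 lower, and DESeq2 gave 324 higher and 531 lower.

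**Figure D2:**
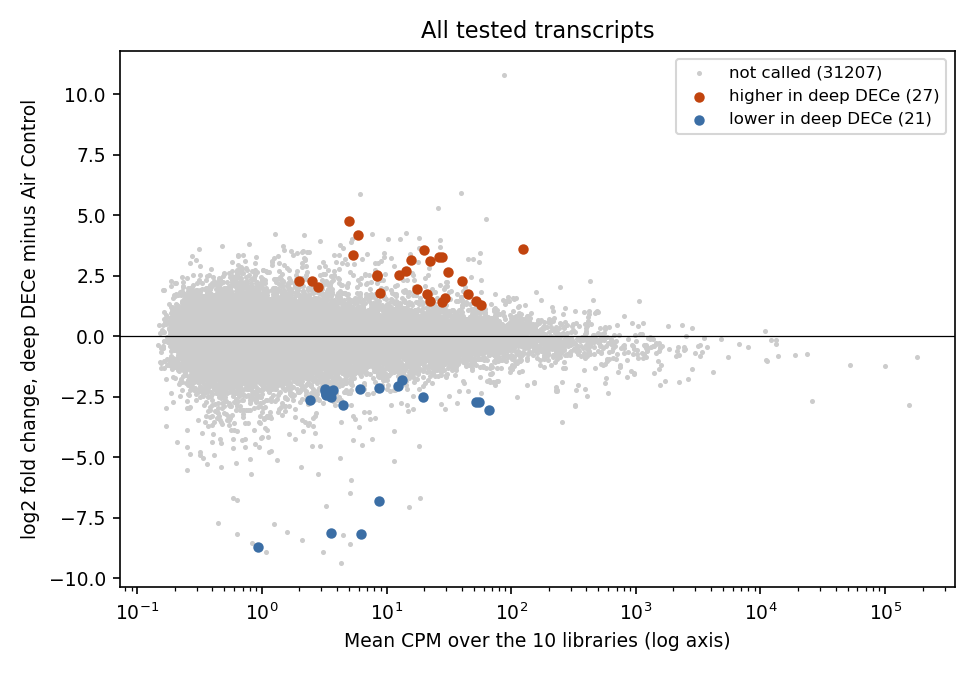
log2 fold change of deep DECe minus Air Control (edgeR) against mean CPM over the 10 libraries on a log axis, 1 point per tested transcript. The 27 higher and 21 lower calls lie away from 0 in a wide cloud, in which transcripts not called reach -9.38 and 10.79. Of the calls, 4 lower ones fall far below the other lower ones.

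Of the tested transcripts, 1139 (3.64%) had groups that did not overlap, with all 4 deep DECe libraries above all 6 Air Control ones in 468 (1.5%) and below them in 671 (2.15%). Among the called transcripts the groups did not overlap in 25 of the 27 higher and in all 21 lower ones, which is a description of the calls and no further test. The 2 exceptions, singled out here after their values were seen, each overlapped by 1 library. In psme_t125379 (422 nt) DECe replicate 3 was at 21.2 CPM and Air Control replicate 14 at 22.3. In psme_t070917 (684 nt) DECe replicate 2 was at 8.69 CPM and Air Control replicate 15 at 9.004.

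Among the called transcripts, the largest change on the higher side was that of psme_t122582 (429 nt). Over all tested transcripts, called or not, log2 fold changes ran from -9.38 to 10.79. In deep DECe psme_t122582 was at 32.2, 7.61, 5.28 and 2.00 CPM in replicates 2, 3, 4 and 13. In Air Control it was at 0.678, 0.239, 0.614, 0.639, 0.441 and 0.0432 CPM in replicates 3, 5, 8, 11, 14 and 15. All 4 DECe libraries lay above all 6 controls, and DECe replicate 2 was far above the other 3. The means were 11.8 ± 13.8 CPM (SD, n = 4) and 0.442 ± 0.255 CPM (SD, n = 6), and the log2 fold change with its SE was 4.75 ± 0.78 (adjusted p in edgeR 0.0451). The control levels rest on 2 to 31 counts per library. The call was kept in 1 of the 10 fits that leave out 1 library, the one without DECe replicate 13 (edgeR adjusted p = 0.0320, against 0.0627 to 0.116 in the others). It also ended in the fit over 15 deep libraries (edgeR adjusted p = 0.169) and with all 26 libraries (0.133).

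The most counted of the higher transcripts was psme_t044566 (1059 nt). It was at 101.8, 254.2, 236.0 and 507.8 CPM in DECe replicates 2, 3, 4 and 13. The Air Control replicates 3, 5, 8, 11, 14 and 15 were at 13.7, 16.6, 12.4, 21.3, 31.8 and 40.5 CPM. The lowest exposed seedling was thus more than 2 times the highest control. The means were 274.9 ± 169.5 CPM (SD, n = 4) and 22.7 ± 11.2 CPM (SD, n = 6). The log2 fold change with its SE was 3.60 ± 0.45 (adjusted p in edgeR 0.0119), and the call was kept in all 10 fits that leave out 1 library (edgeR adjusted p = 0.0116 to 0.0485). It ended without Air Control replicates 11 and 14 together (edgeR adjusted p = 0.0657).

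Among the lower calls, psme_t025158 (1717 nt) had the largest fitted change. It had 0 counts in all 4 deep DECe libraries. In Air Control it had 54, 20, 20, 33, 42 and 66 counts in replicates 3, 5, 8, 11, 14 and 15, which is 1.18, 0.478, 0.533, 1.92, 3.70 and 1.43 CPM. The transcript was thus counted in every control and in no deep DECe library. A floor of 3 counts per library came to at most 0.207 CPM in deep DECe, so the Air Control mean of 1.54 ± 1.19 CPM (SD, n = 6) was at least 7.44-fold higher (edgeR adjusted p = 0.0439). The call was kept in 0 of the 10 fits that leave out 1 library, with edgeR adjusted p from 0.0539 to 0.0972, and in the fit over 15 deep libraries it was kept (edgeR adjusted p = 0.0163).

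The most counted of the lower transcripts was psme_t034775 (1325 nt). Deep DECe replicates 2, 3, 4 and 13 were at 13.1, 9.09, 17.3 and 10.1 CPM. Air Control replicates 3, 5, 8, 11, 14 and 15 were at 69.5, 73.2, 74.1, 150.7, 148.4 and 100.4 CPM. The groups were far apart, and within each the seedlings differed by little more than 2 times. The means were 12.4 ± 3.70 CPM (SD, n = 4) and 102.7 ± 37.9 CPM (SD, n = 6). The log2 fold change with its SE was -3.05 ± 0.34 (adjusted p in edgeR 0.00979). This call was kept in all 10 fits that leave out 1 library (edgeR adjusted p = 0.0107 to 0.0485).

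**Figure D3:**
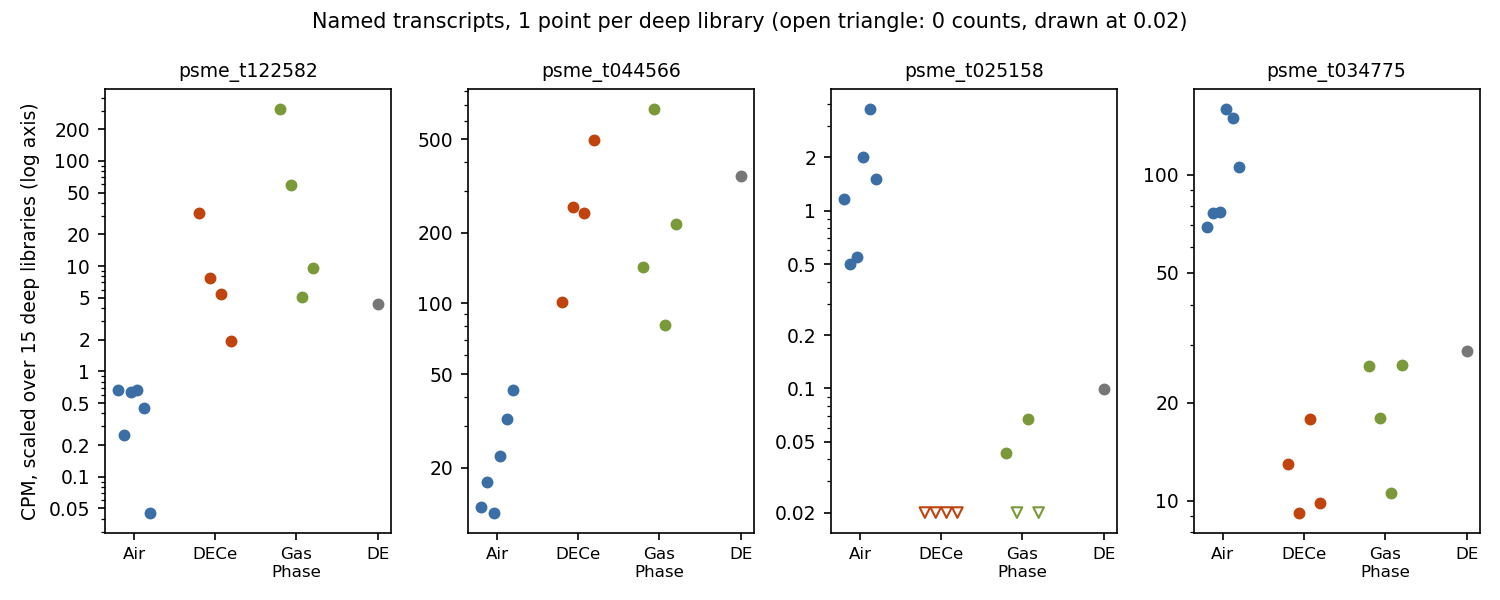
CPM of the 4 named transcripts in the 15 deep libraries, scaled together, on log axes, with 1 point per library and open triangles for 0 counts. In each panel the 4 DECe points lie on 1 side of the 6 Air Control points, and the 4 Gas Phase points and the DE point are shown beside them.

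Besides psme_t025158, another 3 lower transcripts were close to 0 in every deep DECe library. They are singled out here after their values were seen. psme_t143559 (380 nt) had 3 counts over the 4 DECe libraries and 1.41 to 11.5 CPM in the controls, with a median of 5.04. psme_t132144 (405 nt) had 5 counts over the 4 DECe libraries and 1.95 to 42.0 CPM in the controls. psme_t034960 (1319 nt) had 19 counts over the 4 DECe libraries, at most 0.204 CPM, and 3.47 to 49.8 CPM in the controls. In all 3, and in psme_t025158, Air Control replicate 14, the library with the lowest TMM factor, was the highest control. The remaining 17 lower transcripts kept a measurable level in exposed needles, with log2 fold changes from -3.05 to -1.81. With psme_t025158 at its bound the median of the 21 lower transcripts stayed at -2.50.

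The higher transcripts did not all move in step among the exposed seedlings. Of the 27, 12 were highest in DECe replicate 2, 10 in DECe replicate 13, 4 in replicate 3 and 1 in replicate 4. The ratio of the highest to the lowest DECe library ran from 1.40 to 16.1 with a median of 3.69, and the same ratio among the controls had a median of 2.64. In 13 of the 27, DECe replicate 2 was the lowest, so the same seedling was often at one end or the other. For the lower transcripts, Air Control replicate 14 was the highest control in 11 of 21 and Air Control replicate 3 the lowest in 11 of 21. Some calls did run together, and are singled out here after their values were seen. In DECe replicates 2, 3, 4 and 13, psme_t041061 was at 14.46, 28.06, 25.31 and 122.0 CPM. psme_t040766 was at 12.85, 33.67, 33.27 and 149.8 CPM, and psme_t037510 at 7.372, 24.92, 21.61 and 81.68. Among the lower ones, psme_t000633, psme_t004609 and psme_t002087 were each at 7.233 CPM in Air Control replicate 14. Whether such transcripts share reads was not tested.

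The calls were spread unevenly over abundance and length. With the tested transcripts parted into 3 classes of nearly equal size by mean CPM, the lowest class (up to 1.14 CPM) held 0 higher and 1 lower calls, 0.0096% of its members. The middle class held 5 higher and 10 lower (0.144%), and the highest class (from 5.47 CPM) held 22 higher and 10 lower (0.307%). The median SE of the log2 fold change fell across these classes from 0.75 to 0.43 and 0.30, so precision differed as well. By length, transcripts of 300 to 1436 nt held 15 higher and 12 lower calls (0.259%), those of 1437 to 2423 nt held 7 and 2 (0.0864%), and longer ones held 5 and 7 (0.115%). The median length was 1258 nt among the higher and 1375 nt among the lower calls, against 1911 nt over all tested transcripts.

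Most calls lay close to the threshold. An edgeR adjusted p above 0.04 belonged to 17 of the 27 higher and 11 of the 21 lower transcripts. All 48 kept their direction in each of the 10 edgeR fits that leave out 1 library, but 8 of them were called in none of these fits. Without DECe replicate 4 the number called was 4, and it was 8 without Air Control replicate 5 and 8 without replicate 8. It was 9 without Air Control replicate 11, and 20, 22 and 19 without Air Control replicates 3, 14 and 15. It was 26 without DECe replicate 3, 24 without DECe replicate 13 and 33 without DECe replicate 2.

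**Figure D4:**
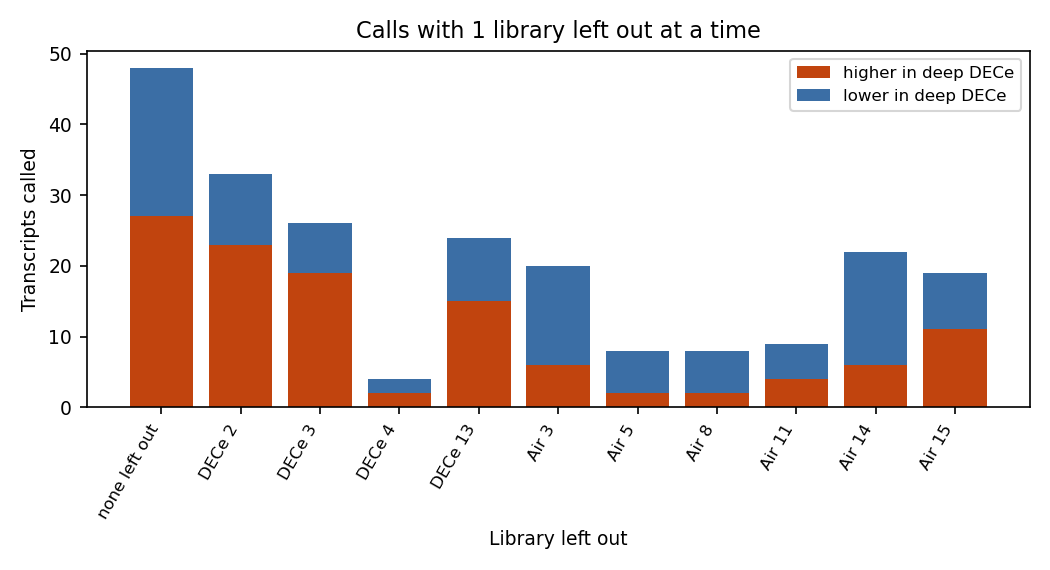
Number of transcripts called by edgeR in all 10 libraries (first bar, 48) and with 1 library left out at a time, split into higher and lower in deep DECe. The count ranges from 4 without DECe replicate 4 to 33 without DECe replicate 2.

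Called in all 10 of these fits were 2 higher and 2 lower transcripts: psme_t044566 and psme_t034775, described above, with psme_t010376 and psme_t034114, singled out for this. psme_t010376 (2744 nt) was at 23.9, 52.4, 53.7 and 109.4 CPM in DECe replicates 2, 3, 4 and 13, and at 3.11 to 8.32 CPM in the controls. As in psme_t044566, replicate 13 was the highest exposed seedling and replicate 2 the lowest. The log2 fold change with its SE was 3.25 ± 0.39 (adjusted p in edgeR 0.0108). psme_t034114 (1349 nt) was at 1.24, 0.979, 0.904 and 0.690 CPM in the same DECe replicates and at 5.64 to 8.73 CPM in the controls. Levels within each group were close together, and the log2 fold change with its SE was -2.83 ± 0.30 (adjusted p in edgeR 0.00979).

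The 3 DECe seedlings under the depth limit did not enter the calls, and their libraries give levels from the same chamber. With all 26 libraries scaled together, psme_t044566 was at 71.6, 6.27 and 161.9 CPM in DECe replicates 5, 10 and 15 (79, 11 and 523 counts), where the controls ran from 4.12 to 13.3 CPM. Replicate 10 thus lay within the range of the controls, and the others lay above it. psme_t034775 was at 4.53, 3.42 and 10.8 CPM (5, 6 and 35 counts), below the control range of 22.4 to 52.3 CPM. For psme_t025158 (1, 1 and 0 counts) the floor of 3 counts was 0.929 to 2.72 CPM in these libraries, so control levels, 0.16 to 1.26 CPM on this scale, were mostly not detectable. psme_t122582 had 1, 0 and 15 counts.

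For the called transcripts together, the level of each library was set against the Air Control mean as log2 of CPM with 0.5 added. Over the 27 higher transcripts the median was 1.12, -0.61 and 1.004 in shallow DECe replicates 5, 10 and 15, and 1.56 to 1.94 in the 4 deep DECe libraries. Over the 21 lower ones it was -2.14, -2.09 and -1.44, and -1.90 to -1.46 in the deep libraries. Many of these values are at 0 counts. In replicates 5, 10 and 15, 2, 13 and 3 of the 27 and 11, 9 and 6 of the 21 had no count, and the median of all tested transcripts was itself at -0.54, -0.62 and -0.50. These levels use the same controls as the calls.

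Whole and particle-filtered cerium exhaust were compared directly in the 15 deep libraries (4 against 4). In this contrast the controls and the DE library enter only through the filter on low counts, the scaling and the estimate of the spread. In edgeR, 0 of 45063 transcripts passed (0%), 2441 (5.42%) had an unadjusted p under 0.05, and DESeq2 called 14. Of the 48 transcripts, 1 of the 27 higher and 5 of the 21 lower had an unadjusted p under 0.05 in this contrast, and the lowest edgeR adjusted p was 0.909. The log2 difference of deep DECe minus deep DECe Gas Phase had a median of 0.05 over the 27 (range -3.03 to 1.06) and of -0.69 over the 21 (range -4.87 to 0.25). The DECe libraries had been used to call these transcripts. The medians, and the p-values of called transcripts in this contrast, are therefore descriptions and no further test. In psme_t044566 the deep Gas Phase replicates 2, 3, 7 and 10 were at 143.0, 670.8, 80.8 and 217.7 CPM, a log2 difference of -0.02 ± 0.60 (SE, edgeR unadjusted p = 0.975). In psme_t034775 they were at 25.9, 17.9, 10.6 and 26.1 CPM, a log2 difference of -0.69 ± 0.35 (SE, edgeR unadjusted p = 0.0646). The level of psme_t122582 reached 310.2 CPM in Gas Phase replicate 2 and was 59.0, 5.14 and 9.71 in replicates 3, 7 and 10, with a log2 difference of -3.03 ± 1.24 (SE, edgeR unadjusted p = 0.0312). psme_t025158 had 1, 0, 3 and 0 counts in these libraries. No difference between the exhausts passed in this edgeR fit, although 3 transcripts did without a filter on low counts. A p that misses the threshold does not show that they act alike.

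Against the same 6 controls, each exhaust has its own values for the called transcripts. In the fit over the 15 deep libraries the log2 change from Air Control over the 27 had a median of 2.42 in deep DECe (1.24 to 4.72) and 2.26 in deep DECe Gas Phase (0.93 to 7.75). Over the 21 the median was -2.54 in deep DECe (-8.63 to -1.85) and -1.92 in deep DECe Gas Phase (-6.95 to -0.44). In the single deep DE library, replicate 5, the medians were 1.18 (-1.02 to 3.89) and -1.88 (-4.90 to -0.42). The comparisons share their controls, and the calls were made on DECe. DE replicate 5 was at 348.9 CPM of psme_t044566, 28.9 CPM of psme_t034775 and 4.42 CPM of psme_t122582, and had 4 counts of psme_t025158. With 1 library there is no test for DE at this depth.

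**Figure D5:**
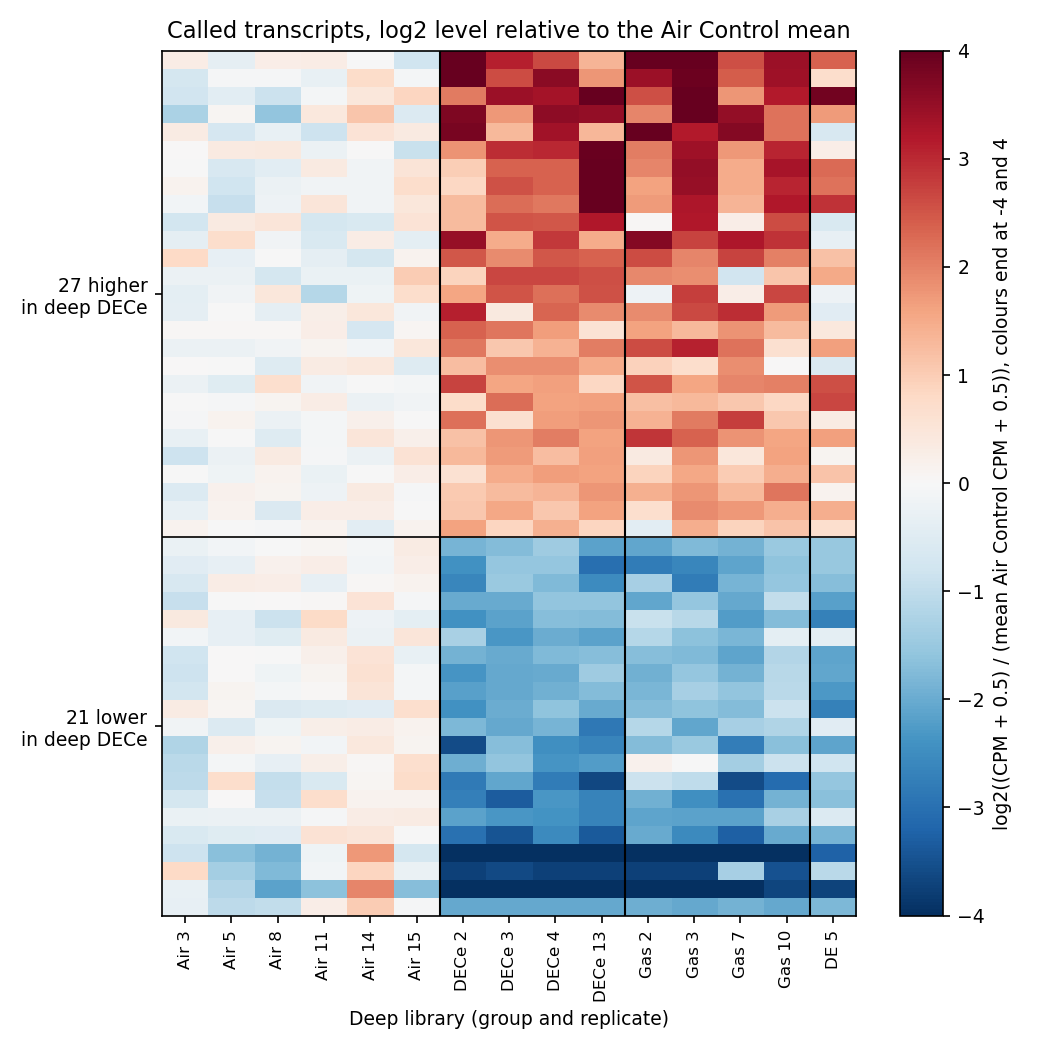
Level of the 48 called transcripts (rows) in the 15 deep libraries (columns), as log2((CPM + 0.5) / (mean Air Control CPM + 0.5)) with colours ending at -4 and 4. The 4 DECe columns are red over the 27 higher and blue over the 21 lower transcripts, and the 4 Gas Phase columns and the single DE column are set against the same controls.

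The dominant transcripts were not among the calls. With 0.154% of all tested transcripts called, a set of 16 is too small for this to mean more. The most counted, psme_t002753 (4295 nt), took 12.5%, 21.1%, 13.5% and 10.7% of the counts in DECe replicates 2, 3, 4 and 13. In the Air Control replicates 3, 5, 8, 11, 14 and 15 it took 12.4%, 5.75%, 10.6%, 8.28%, 21.5% and 18.1%. The ranges overlapped widely, with means of 14.4% ± 4.57 (SD, n = 4) and 12.8% ± 5.98 (SD, n = 6). On the TMM scale the log2 fold change with its SE was -0.86 ± 0.75 (adjusted p in edgeR 0.723), opposite in sign to the difference in shares. Air Control replicate 14, with the lowest TMM factor, was at 827800 CPM, against at most 140600 CPM in any other control. The medians were 110900 CPM in deep DECe and 108200 CPM in Air Control. The next, psme_t001906 (4727 nt), took 4.26% to 9.09% in deep DECe and 4.47% to 11.8% in Air Control. It changed by -1.22 ± 0.69 on the log2 scale (SE, adjusted p in edgeR 0.549). Here too Air Control replicate 14 was far above, at 453800 CPM against at most 83520 CPM in any other control.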

How the data were processed

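Poly(A) RNA of needles was sequenced from 26 seedlings (1 library each). Per the submitters' processing notes CASAVA 1.8.2 was used. What aligner, counter and transcriptome were used was not given in the sources used here. Copies that share reads, and strand, can therefore not be resolved. The deposited table of raw counts and the deposited table of RPKM values (per kilobase and 1000000 counts, per the file headers) cover 173882 transcripts. Lengths were computed from the ratio between them for 75917 transcripts. Single values at high RPKM deviated from these lengths by at most 0.0294%. Groups came from the source labels and replicate numbers from the titles.

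The main fit used edgeR 4.0.16 (R 4.3.3) on the deposited counts of the 10 compared libraries: filterByExpr with a minimum count of 10, TMM factors, trended dispersions, the robust quasi-likelihood test and p-values adjusted by Benjamini-Hochberg over 31255 transcripts. The SE is the log2 fold change divided by the signed root of F. Whole and filtered exhaust were contrasted in 1 model over the 15 deep libraries. Library measures were tested by exact permutation (scipy 1.17.1). The steps were tested on simulated data. Seedlings were separate plants in 1 chamber per group, so p-values measure the spread between seedlings. The floors cover counting error only. Libraries within a group all differed beyond sampling noise (chi-square over degrees of freedom at least 59.2).

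Named were, in each direction, the called transcript with the largest change and the one with the highest mean CPM (where the higher group's median reached 1 CPM), and the 2 most counted dominant ones. Others are said to be singled out. The members, lists and alternatives were chosen with earlier results of these data known. The alternatives were other scalings, filters, DESeq2 1.42.0, limma-voom and limma 3.58.1 on log2(RPKM + 1) and log2(RPKM + 0.1), thinning, a depth covariate, other sets of libraries, and leaving out each library. Leaving out Air Control replicates 11 and 14 together was added after seeing the data.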

Additional observations from a re-analysis of the deposited data

Results flagged for a closer look

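The dominant transcripts took 36.7% of the counts in DECe replicate 13, against 42.9% to 44.01% in the other 3 deep DECe libraries, a gap to the nearest that was 0.851 of the group's whole range. Of 16 groups of values checked for a sample far from the others, 1 was singled out in this way, and chance gives about 1 in 20.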

How the results depend on the processing

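The 48 calls of deep DECe against Air Control became 102 with library sizes alone, 29 with scaling without the dominant transcripts, 1228 without a filter on low counts (85562 tested) and 855 in DESeq2. They became 178 in limma-voom, 105 in edgeR with legacy=FALSE, 80 in limma on log2(RPKM + 1) and 13 with the log2 total as a covariate. Leaving out 1 library at a time gave 4 to 33, and Air Control replicates 11 and 14 together gave 13. All 48 were among the calls without a filter, in DESeq2 and with legacy=FALSE. Shared with the 48 were 24 calls with library sizes alone, 23 and 20 in limma on log2(RPKM + 1) and log2(RPKM + 0.1), 12 with the covariate, 15 with all 26 libraries and 2 with the replicate block. The cause of these shifts was not tested. Whether the replicate numbers pair the seedlings was checked by correlating deviations from the group mean between libraries of the same number. Not every pair was over 0.1. The values were 0.155, -0.018 and -0.0958 for the numbers 3, 5 and 15 of DECe and Air Control. They were -0.155 to 0.298 over the 5 numbers shared by DECe and DECe Gas Phase. The DECe and DECe Gas Phase means mix shallow and deep libraries, so these values cannot exclude a pairing. With all 26 libraries and the replicate block, 19 were called, and 61 between DECe and DECe Gas Phase. That contrast gave 3 without a filter and 14 in DESeq2, against 0 in its main form and 0 with each library left out. The difference in dominant share ran from -9.35 to 0.39 percentage points with 1 library left out. The difference in detected transcripts was 2208 at 10 or more counts, opposite in sign to the main value, and -4902 to -953.2 with 1 library left out. The share of distances between groups, 16.3% in its main form, was 16.9% to 19.7% with 1 library left out and 21.7% on Spearman correlations. The 4 named transcripts kept their direction in every alternative that gave a value, but not every call. The covariate ended those of psme_t025158 and psme_t122582 (edgeR adjusted p = 0.0725 and 0.0852), and the replicate block those of psme_t034775, psme_t025158 and psme_t122582 (0.686, 0.388 and 0.0783). Scaling without the dominant transcripts and thinning ended that of psme_t122582 (0.0509 and 0.0505). Transcripts under about 1 CPM had the widest errors, and depth limits what they can show.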

Other observations

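Over the whole table, without a filter, 1 transcript (psme_t025158) had 0 counts in all 4 deep DECe libraries and at least 10 in all 6 Air Control libraries, and 0 transcripts showed the opposite pattern. At a minimum of 1 count these numbers were 43 and 7. The groups differ in size and depth, so the numbers of both directions are not compared.

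Among the dominant transcripts, 3 were high in 1 or 2 libraries, and they were chosen after their values were seen. psme_t000146 took 32.3% in Air Control replicate 14 and at most 6.14% in each of the other 9 libraries. psme_t020372 took 5.24% in Air Control replicate 14 and at most 1.07% in each of the other 9. psme_t002954 took 6.52% in DECe replicate 2 and 10.4% in Air Control replicate 11, and at most 0.805% in each of the others.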
